A study of Mus musculus with 6 samples.

Results

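*Sp100*, *Sp110*, *Sp140*, *Pml* and *Daxx* encode proteins of the Sp100 family and of PML nuclear bodies, and they were followed in bone-marrow-derived macrophages (BMDMs) with and without CITED2. The genes were chosen by name, and all 5 were found among the 22248 genes listed in the expression matrix. All 5 were also among the 11687 genes with a mean of at least 1 FPKM (fragments per kilobase of transcript, scaled to library size), which were tested. The matrix holds 6 libraries of resting BMDMs, 3 of *Lyz2cre* controls and 3 of *Cited2* fl/fl:*Lyz2cre* mice, called CITED2-deficient, all of the C57BL/6 strain. BMDMs were grown from the marrow of femurs and tibiae in medium with macrophage colony-stimulating factor, and no stimulus was given. The labels give an age of 10 weeks for the mice, and the methods of the study give a younger one. Both groups carry Cre recombinase at *Lyz2*, a gene that is active in myeloid cells, so deletion of the floxed *Cited2* is limited to cells that have used this locus. The design gives 3 mice, but the labels only number the replicates and tie no library to 1 mouse, so p-values measure the spread between these libraries, which may be partly technical.

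PML bodies are spherical structures of the nucleus that are built on the PML protein and held together by the small modifier SUMO. SP100 and DAXX are permanent residents of these bodies. DAXX is the chaperone that works with ATRX to place the histone variant H3.3, and SP100, SP110 and SP140 share domains that read or bind chromatin. The *Sp* genes and *Pml* are known interferon-inducible genes, and PML bodies are known for restricting DNA viruses. *Sp110*, also called *Ipr1*, lies in a mouse locus known for resistance to tuberculosis.

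The sequences just before the gene starts are shown first, because the family lies in a duplicated region where some copies are nearly identical. Among the relatives followed below, only *Gm7609*, *A530032D15Rik*, *C130026I21Rik* and *A530040E14Rik* had a window. The starts of the other copies could not be compared. Windows of 250 bases before to 50 bases after each start came from RefSeq on the GRCm38.p6 build, and all 5 genes matched, with 2 windows for *Sp100*, 2 for *Sp110*, 1 for *Sp140*, 1 for *Pml* and 3 for *Daxx*. The motifs searched on both strands were GAAANNGAAA, a form of the interferon-stimulated response element, its shorter core AANNGAAA, which every full match also contains, and TTCNNNGAA, the gamma-activated site bound by STAT proteins. Of all 32851 windows, 3.44% held the first, 23.9% the second and 8.30% the third. Neither GAAANNGAAA nor TTCNNNGAA was found in any window of the 5 genes. The core AANNGAAA was found for *Sp100*, *Sp110* and *Pml* and not in the windows of *Sp140* or *Daxx*. A match is a description of letters, and a core present in 23.9% of all windows marks no gene by itself.

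The first set shows the core matches in capitals, all on the opposite strand of the gene, so that they read as TTTC followed by any 2 bases and TT. In *Sp100* a pair of overlapping matches covers bases -47 to -33 before the start at base 85649988 of chromosome 1. The pseudogene *Gm7609* of the same cluster carries the same pair at -75 to -61, and over 272 aligned bases its window is 98.5% identical to that of *Sp100*. *Sp110* has a like pair at bases 10 to 24 after the start of its second window, in the annotated 5′ UTR of its first exon, and the 2 windows of *Sp100* and *Sp110* share no run longer than 11 bases. *Pml* has a single match at -74 to -67.
*Sp100* chr1:85649888-85649987, plus strand: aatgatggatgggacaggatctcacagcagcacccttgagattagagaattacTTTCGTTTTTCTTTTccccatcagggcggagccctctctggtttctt
*Gm7609* chr1:85199511-85199610, plus strand: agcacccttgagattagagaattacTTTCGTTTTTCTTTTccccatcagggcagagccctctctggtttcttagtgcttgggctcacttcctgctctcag
*Sp110* chr1:85598781-85598810, minus strand: tgagatcacTTTCATTTTTCTTTTcttgaa
*Pml* chr9:58249787-58249886, minus strand: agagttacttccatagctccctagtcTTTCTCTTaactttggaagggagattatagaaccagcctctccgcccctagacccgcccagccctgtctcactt

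The second set shows *Sp140* beside *A530032D15Rik*, a protein-coding relative in the same cluster. The capital marks the only base that differs in the 131 bases that both printed sequences hold. The window of *C130026I21Rik*, another such relative that is not printed, has the same single difference over 122 shared bases. The difference is G26A for both relatives, counted from 1 at the 5′ end of the printed *Sp140* sequence, with the base of *Sp140* first. The printed *Sp140* stretch overlaps an exon of a longer annotated transcript of the gene.
*Sp140* chr1:85600543-85600702, plus strand: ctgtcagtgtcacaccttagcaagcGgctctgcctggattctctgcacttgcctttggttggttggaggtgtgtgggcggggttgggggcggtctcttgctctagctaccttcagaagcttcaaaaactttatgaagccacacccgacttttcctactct
*A530032D15Rik* chr1:85109854-85110013, minus strand: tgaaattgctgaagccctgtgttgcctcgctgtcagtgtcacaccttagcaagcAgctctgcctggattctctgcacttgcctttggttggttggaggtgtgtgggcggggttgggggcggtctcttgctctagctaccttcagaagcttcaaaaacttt

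*Daxx*, which like *Sp140* has no match to any of the motifs, is shown by the 100 bases before the first annotated base of the gene.
*Daxx* chr17:33909314-33909413, plus strand: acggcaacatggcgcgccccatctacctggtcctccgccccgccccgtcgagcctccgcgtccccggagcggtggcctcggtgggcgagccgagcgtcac

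The targeted gene was low in every CITED2-deficient library. *Cited2* stood at 71.7, 79.3 and 75.5 FPKM in control BMDMs and at 9.27, 7.22 and 7.53 FPKM in CITED2-deficient BMDMs. The library sizes implied by the FPKM values were 17289286 to 18952077 fragments for control libraries and 22583995 to 26100410 for CITED2-deficient libraries. CITED2-deficient replicate 1 stood apart in stromal transcripts, with a summed 686 FPKM over 10 fibroblast or stromal markers against 236 and 237 in the other deficient libraries.

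All 5 genes were expressed in control BMDMs and all 5 were higher in CITED2-deficient BMDMs, by 2.13 to 3.09 times. The order of the changes was *Daxx*, *Sp100*, *Sp140*, *Sp110* and *Pml*. In bulk RNA, fewer or more cells of a type and less or more RNA per cell cannot be told apart. In limma with Benjamini-Hochberg adjustment over the 11687 tested genes, 5 of 5 passed the threshold of 0.05 as higher, where 51.3% of all tested genes passed in either direction and 16.7% passed as higher. Of all genes called, 32.5% were higher, a share that moved to 50.5% with median-ratio scaling and 42.0% with quantile normalization, and all 5 stayed higher under both. Their 3 deficient libraries did not overlap the 3 control libraries, which held in this direction for 19.0% of all tested genes. The median log2 fold change was 1.21 over the 5 genes and -0.10 over all tested genes. A fold change at least as large as the smallest of the 5 was found for 388 tested genes (3.32%), and one at least as large as the largest for 157 (1.34%). Fold changes below are on the log2(FPKM + 1) scale.

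*Sp100* encodes the founding member of the family, a resident of PML bodies. It stood at 104, 106 and 103 FPKM in control BMDMs and at 276, 296 and 288 FPKM in CITED2-deficient BMDMs. The control libraries lay close together, and the lowest deficient library was far above the highest control. The means were 105 ± 1.31 and 287 ± 9.99 FPKM (SD, n = 3), a log2 fold change of 1.45 ± 0.033 (SE), with a 95% interval of 1.37 to 1.52 and an adjusted p of 2.26e-09 in limma. These values rest on 2652 to 2854 fragments per control library and 9689 to 10885 per deficient library. *Sp100* had the highest level of the 5 genes in every library, above 90.7% of tested genes in control BMDMs and above 97.0% in CITED2-deficient BMDMs.

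*Daxx* encodes the H3.3 chaperone of PML bodies and showed the largest fold change of the 5. It stood at 45.6, 44.8 and 50.2 FPKM in control BMDMs and at 137, 150 and 148 FPKM in CITED2-deficient BMDMs. No library of one group came near the other. The means were 46.8 ± 2.92 and 145 ± 7.0 FPKM (SD, n = 3), a log2 fold change of 1.61 ± 0.052 (SE), with a 95% interval of 1.49 to 1.73 and an adjusted p of 2.29e-08 in limma. *Daxx* moved from above 77.9% of tested genes to above 93.7%. Whole fragment numbers could not be recovered for this gene, so the depth behind its values is unknown.

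*Pml* encodes the scaffold of the bodies and showed the smallest fold change of the 5. It stood at 33.8, 33.4 and 33.4 FPKM in control BMDMs and at 68.8, 74.8 and 71.2 FPKM in CITED2-deficient BMDMs. The control libraries differed by less than 1 FPKM. The means were 33.6 ± 0.213 and 71.6 ± 3.03 FPKM (SD, n = 3), a log2 fold change of 1.07 ± 0.040 (SE), with a 95% interval of 0.98 to 1.16 and an adjusted p of 6.03e-08 in limma. The values rest on 1251 to 1383 fragments per control library and 3657 to 4022 per deficient library.

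*Sp110* and *Sp140* encode the other listed relatives of SP100, chromatin-reading nuclear proteins of immune cells. *Sp110* stood at 52.0, 46.6 and 51.8 FPKM in control BMDMs and at 106, 117 and 107 FPKM in CITED2-deficient BMDMs. *Sp140* stood at 35.2, 32.1 and 32.3 FPKM in control BMDMs and at 74.9, 85.1 and 74.5 FPKM in CITED2-deficient BMDMs. For both genes every deficient library was above every control library, and deficient replicate 2 was the highest. The means of *Sp110* were 50.1 ± 3.10 and 110 ± 6.28 FPKM (SD, n = 3), a log2 fold change of 1.12 ± 0.055 (SE), 95% interval 0.99 to 1.24, with an adjusted p of 3.76e-07 in limma. The means of *Sp140* were 33.2 ± 1.75 and 78.2 ± 6.06 FPKM (SD, n = 3), a log2 fold change of 1.21 ± 0.060 (SE), 95% interval 1.07 to 1.34, with an adjusted p of 3.90e-07 in limma. *Sp110* rested on 1087 to 1328 fragments per control library and 3571 to 3774 per deficient library, and *Sp140* on 541 to 649 and 1853 to 1893.

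**Figure D1:**
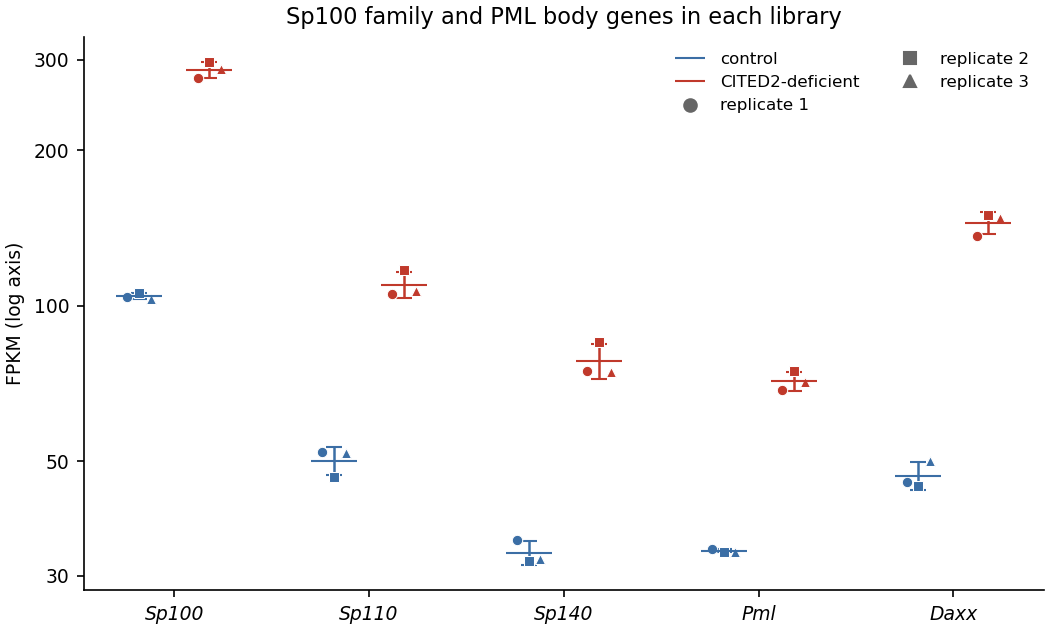
FPKM of the 5 genes on a log axis, with each library as a point, the replicates by shape, the group mean as a wide bar and the SD as a narrow one. For each gene the 3 CITED2-deficient libraries lie above the 3 control libraries, with *Sp100* the highest gene in both groups, at means of 105 and 287 FPKM.

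The order of the levels changed between the groups. In control BMDMs the means ran *Sp100*, *Sp110*, *Daxx*, *Pml* and *Sp140*, and the libraries overlapped between *Sp110* and *Daxx* and between *Pml* and *Sp140*. In CITED2-deficient BMDMs they ran *Sp100*, *Daxx*, *Sp110*, *Sp140* and *Pml*, and only *Sp140* and *Pml* overlapped. Ratios of FPKM within a library leave out any scaling of the libraries. *Sp110* stood at 1.14, 1.04 and 1.03 times *Daxx* in control BMDMs and at 0.772, 0.782 and 0.724 times *Daxx* in CITED2-deficient BMDMs. *Pml* stood at 0.742, 0.746 and 0.666 times *Daxx* in control BMDMs and at 0.503, 0.50 and 0.481 times in CITED2-deficient BMDMs. *Sp100* stood at 3.09, 3.17 and 3.09 times *Pml* in control BMDMs and at 4.02, 3.96 and 4.05 times in CITED2-deficient BMDMs. The ratio of *Sp110* to *Pml* overlapped between the groups, at 1.54, 1.39 and 1.55 against 1.53, 1.57 and 1.5. Of the 10 pairs, 9 had ratios that did not overlap between the groups. The pairs share the same few genes, and the share of such pairs among all tested genes was not computed. The count therefore marks nothing particular to these genes. With 3 libraries a group the exact two-sided permutation test cannot go below p = 0.1, which those 9 reached (0.111 adjusted over the 10 pairs), and *Sp110* to *Pml* gave p = 0.7, so no pair passed 0.05.

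**Figure D2:**
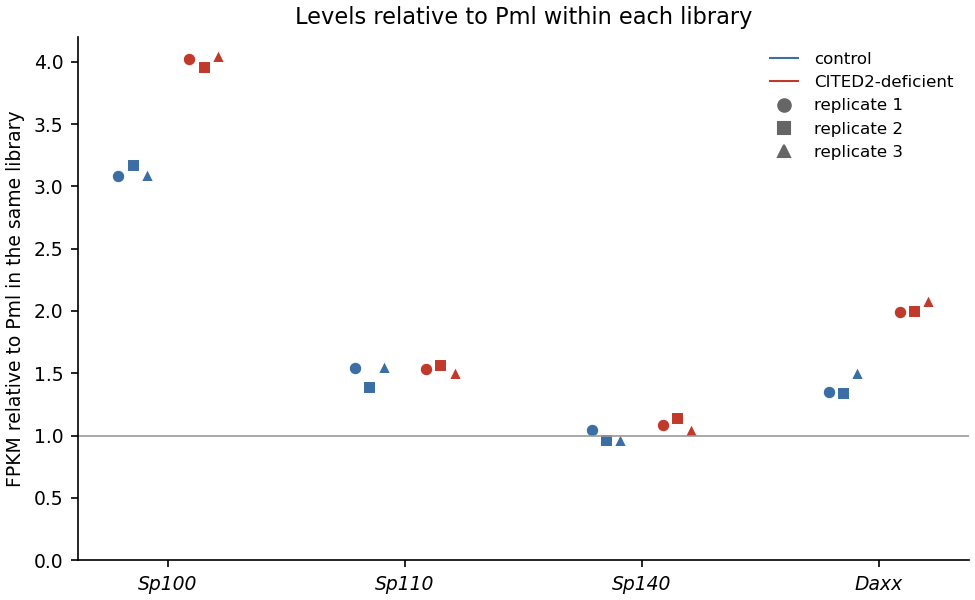
FPKM of *Sp100*, *Sp110*, *Sp140* and *Daxx* divided by that of *Pml* in the same library, with each library as a point and the replicates by shape. The ratios of *Sp100* and *Daxx* to *Pml* are higher in each CITED2-deficient library than in any control library, and those of *Sp110* to *Pml* overlap.

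*Sp110*, *Sp140* and *Sp100* lie next to each other on chromosome 1 in mm10, at 85576899 to 85598817 on the minus strand (ENSMUSG00000070034), 85600378 to 85645037 on the plus strand (ENSMUSG00000070031) and 85649988 to 85709998 on the plus strand (ENSMUSG00000026222). *Pml* (ENSMUSG00000036986) lies on chromosome 9 at 58218076 to 58249786, minus strand, and *Daxx* (ENSMUSG00000002307) on chromosome 17 at 33909414 to 33915590, plus strand. A chosen list of relatives and the stretch from *Sp110* to *Sp100* gave 13 further genes in the matrix. Most of them are pseudogenes or antisense transcripts. Of these 13, 8 were tested and 8 were higher in CITED2-deficient BMDMs, and 5 were below the filter. Several passed the filter only through the deficient libraries, where they had to be high, so this count supports nothing about the region. The list does not hold every relative in the matrix. *Gm2427*, a pseudogene that shares transcript sequence with *Sp140*, was not on it and had 0 or 1 fragments in every library of both groups. *Gm2619*, a copy of *Sp100* summed below, was not on it either.

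The relatives are given by fragment numbers, because their levels were low. *Gm7609*, whose start resembles that of *Sp100*, had 8, 8 and 4 fragments in control libraries and 153, 201 and 264 in CITED2-deficient libraries. Its level was 0.366 ± 0.136 against 8.36 ± 2.11 FPKM (SD, n = 3), so it passed the filter through the deficient libraries and its test is not used. *Gm7592* had 4, 6 and 3 fragments against 86, 83 and 74, *Gm15433* had 6, 2 and 7 against 125, 136 and 77, and *Gm7582* had 5, 2 and 1 against 37, 40 and 40. All 4 are annotated pseudogenes, and in each the groups were far apart, though their fragments may be reads of other genes, as given below. *A530032D15Rik* had 23, 20 and 24 fragments against 119, 138 and 139, a log2 fold change of 1.55 with an adjusted p of 4.49e-06 in limma. *C130026I21Rik* had 42, 24 and 29 fragments against 94, 121 and 140, a log2 fold change of 1.10 with an adjusted p of 0.000433 in limma. These relatives of *Sp140* stood at 1.31 ± 0.059 and 1.75 ± 0.456 FPKM in control BMDMs, far below *Sp140* itself.

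Transcripts on the opposite strand were also present. *A530040E14Rik*, which overlaps *A530032D15Rik*, had 130, 173 and 175 fragments against 692, 413 and 490, and *Gm16094*, between *Sp110* and *Sp140*, had 10, 10 and 2 against 35, 36 and 38. Below the filter, *Gm17017*, which overlaps the end of *Sp140* and the start of *Sp100*, had 14, 5 and 16 against 30, 42 and 41. The library kit keeps the strand, but whether the counting used it is not stated, so reads of overlapping genes may be assigned to either. The rest of the 13 were *Gm2666* with 0, 0 and 0 fragments against 22, 10 and 10, *Csprs* on an unplaced scaffold with 3, 4 and 8 against 54, 73 and 74, *Gm16026* with 1, 1 and 3 against 3, 8 and 8, and *Gm10552*, at a mean of 0 against 0.051 FPKM.

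Near-identical copies limit how reads can be split. Of all words of 50 bases in the annotated transcripts of a gene, 38.1% for *Sp140* and 36.0% for *Sp110* also occur in transcripts of other genes. The share was 5.86% for *Sp100*, 0.390% for *Pml* and 0% for *Daxx*, so the levels of *Pml* and *Daxx* carry little or none of this uncertainty and those of *Sp110* and *Sp140* the most. Among the copies the share was 87.8% for *Gm15433*, 76.5% for *Gm7582*, 75.8% for *Gm7592* and 36.5% for *Gm7609*. It was 40.1% for *A530032D15Rik* and 25.1% for *C130026I21Rik*. Fragments given for these copies may therefore be reads of other genes. The sources used here do not state how reads that map to several places were counted. Summed fragments of 6 copies assigned to *Sp100* came to 0.564% to 0.876% of the *Sp100* fragments in control libraries and to 4.27% to 4.89% in CITED2-deficient libraries. Of these copies, *Gm15433* shares the most words with *Gm7609* (69.2%) and *Gm2666* with *Gm15433* (54.9%). *Sp100* is not among the genes that share the most with either, so the sum may overstate the reads that could be exchanged with *Sp100*. The pair *A530032D15Rik* and *C130026I21Rik* came to 8.13% to 10.0% of the *Sp140* fragments in control libraries and to 11.5% to 14.7% in CITED2-deficient libraries. They share 13.3% and 12.7% of the *Sp140* words. *Gm5831* and *Gm2427*, which share the most (15.1% each), and *Gm6264* (12.3%) are not in this sum. *Gm16026*, which shares the most words with *Sp110* (26.7%), held at most 0.226% of the *Sp110* fragments in any library. *Gm15753*, which shares 6.83% of the *Sp110* words, was not summed. *C130026I21Rik* and *A530040E14Rik*, whose fragment numbers are given above, share 3.43% and 1.40% of the *Sp110* words. The copies summed here were chosen after the shared words had been seen.

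The nearest neighbors other than the relatives listed above gave other values. *A630001G21Rik*, the next gene after *Sp100*, stood at 31.8 ± 4.02 and 34.8 ± 1.59 FPKM (SD, n = 3), with a log2 fold change of 0.13 and an adjusted p of 0.209 in limma. After median-ratio scaling of the libraries its log2 fold change was 0.22 with an adjusted p of 0.0435. *Cab39*, a scaffold of the kinase LKB1, stood at 164 ± 1.04 and 156 ± 1.13 FPKM, with a log2 fold change of -0.07 and an adjusted p of 0.0477 in limma, which turned to 0.02 and 0.528 after that scaling. *Gm16092*, *9930111H07Rik* and the *Sp140* relative *Gm2427* had 0 to 3 fragments in every library.

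**Figure D3:**
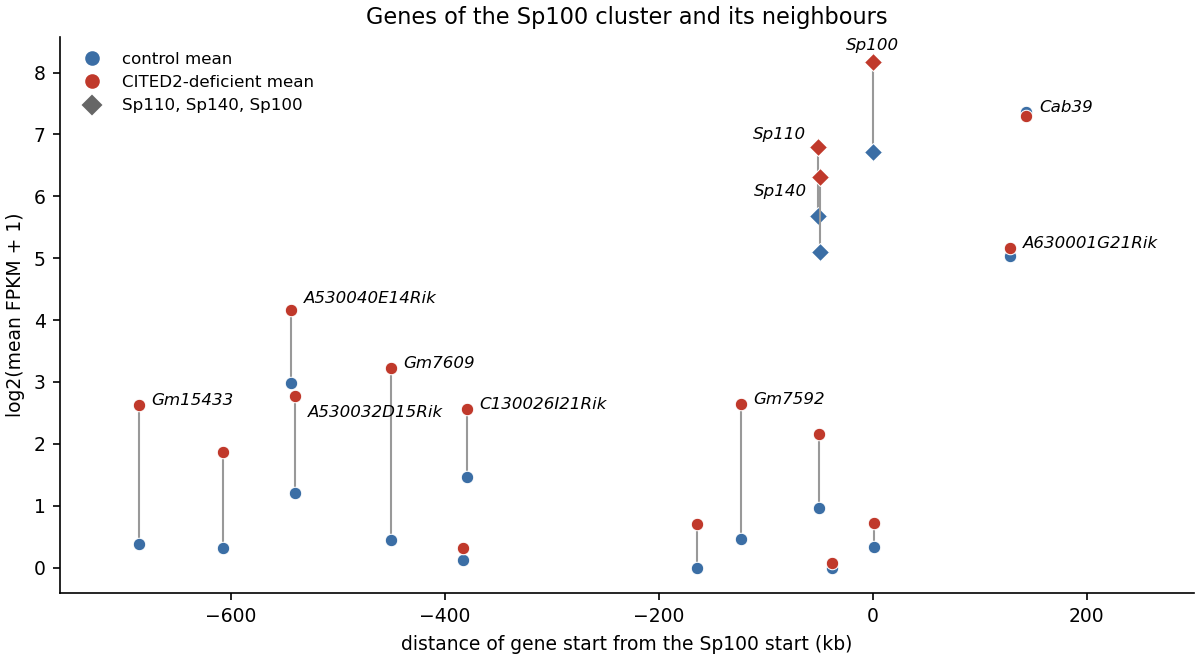
Mean level of each gene as log2(FPKM + 1) against the distance of its start from the *Sp100* start in kb, with control and CITED2-deficient means joined by a line. *Sp110*, *Sp140* and *Sp100* are diamonds. The copies drawn to the left lie lower than the family genes and have a deficient mean above the control mean. *A630001G21Rik* and *Cab39* to the right differ by 0.13 and -0.07 in log2 fold change. *Gm2427* and *Gm2619* are not drawn.

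*Daxx* and *Pml* have neighbors with values of both kinds. *BC051226*, a noncoding transcript that starts 97 bases from *Daxx* on the opposite strand, stood at 6.52, 6.93 and 4.31 FPKM in control BMDMs and at 18.2, 17.4 and 19.4 FPKM in CITED2-deficient BMDMs. Its log2 fold change was 1.5 with an adjusted p of 2.18e-05 in limma. *Tapbp*, which encodes tapasin of antigen loading on MHC class I and starts 309 bases after the end of *Daxx*, stood at 386, 396 and 390 FPKM against 835, 874 and 869 FPKM. Its log2 fold change was 1.13 with an adjusted p of 3.39e-09 in limma. *Zbtb22*, which overlaps *Tapbp*, had 0.18 (adjusted p = 0.0196, limma), *Platr17* had 0.70 (adjusted p = 0.00742, limma) and *Rgl2* had -0.33 (adjusted p = 2.41e-05, limma). *Kifc1*, a mitotic kinesin, did not pass (-0.19, adjusted p = 0.312, limma). Beside *Pml*, *Stoml1* had a log2 fold change of 0.30 (adjusted p = 0.00174, limma) and *Loxl1*, an enzyme of elastic fibers, 1.32 (adjusted p = 8.23e-06, limma). The other neighbors of *Pml* were below the filter.

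The partners of these proteins were read from lists chosen for their roles. Among 20 other PML body proteins, all tested, 7 were higher, 2 were lower and 11 did not pass, with a median log2 fold change of 0.04. Over all tested genes 16.7% were higher and 34.6% lower. The highest was *Isg20*, an interferon-induced exonuclease, at 3.09, 4.48 and 4.44 FPKM in control BMDMs against 29.9, 35.5 and 34.7 FPKM, a log2 fold change of 2.79 with an adjusted p of 1.28e-07 in limma. It was followed by the kinase gene *Hipk2* (0.77, adjusted p = 3.66e-05, limma), by *Mdm2*, the ubiquitin ligase of p53 (0.52, adjusted p = 2.56e-06, limma), and by *Morc3* (0.48, adjusted p = 4.12e-05, limma), an ATPase of PML bodies. *Trp53*, *Smc5* and *Ep300* rose by 0.20 to 0.21. The genes that fell were *Blm*, the Bloom helicase (-0.81, adjusted p = 0.000862, limma), and *Nbn* of the MRN complex (-0.26, adjusted p = 0.0314, limma). After median-ratio scaling 9 were higher and 1 was lower.

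H3.3 deposition is the process in which DAXX takes part. Of its 8 listed genes, 1 was higher, 2 were lower and 5 did not pass, with a median log2 fold change of -0.12, near that of all tested genes, of which 51.3% passed in either direction. *Atrx*, the partner of *Daxx*, stood at 95.6 and 90.7 FPKM and had -0.07 (adjusted p = 0.396, limma), and *Hira* of the other H3.3 pathway had -0.01 (adjusted p = 0.937, limma). *Ubn1* of the HIRA complex fell by 0.40 on the log2 scale (adjusted p = 8.88e-05, limma). Of the genes for H3.3 itself, *H3f3a* had -0.33 (adjusted p = 1.31e-05, limma) and *H3f3b* 0.11 (adjusted p = 0.0217, limma). The call of *H3f3b* was lost with no filter on low values (adjusted p = 0.0558, limma).

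SUMO is joined to PML and its partners by conjugating enzymes and taken off by proteases. Of 10 conjugation genes 6 were lower and 0 higher, with a median log2 fold change of -0.19, where 34.6% of all tested genes were lower. The largest falls were those of the ligase *Pias3* (-0.33, adjusted p = 0.000402, limma), of *Uba2*, a subunit of the activating enzyme (-0.29, adjusted p = 0.000788, limma), and of the ligases *Pias1* (-0.26, adjusted p = 0.00277, limma) and *Pias4* (-0.25, adjusted p = 0.0104, limma). After median-ratio scaling 3 of the 10 passed. *Sumo3*, which encodes a form of the modifier, did not pass, with a log2 fold change of -0.01. Of 8 SUMO proteases and SUMO-targeted ligases, *Senp2* was higher (0.22, adjusted p = 0.000807, limma) and *Senp7* lower (-0.21, adjusted p = 0.0331, limma). After median-ratio scaling *Senp7* no longer passed and 3 of the 8 were higher.

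Other genes share domains with the Sp100 family. *Deaf1*, *Gmeb1* and *Gmeb2*, which share the SAND domain, had log2 fold changes of -0.07, 0.02 and 0.11, and 0 of 3 passed in limma, 0 at an unadjusted p under 0.05 and 0 by limma-voom. Of 7 PHD-bromodomain and HP1 genes, 6 were tested, 5 were lower and 0 higher, where 34.6% of all tested genes were lower. The largest falls were those of *Trim24* (-0.36, adjusted p = 0.00255, limma), *Cbx3* (-0.28, adjusted p = 0.00221, limma), *Trim28* (-0.24, adjusted p = 0.00162, limma) and *Cbx1* (-0.19, adjusted p = 0.00865, limma), and 3 of the 5 passed after median-ratio scaling.

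The genes of interferon transcription moved in both directions. Of 13 genes 12 were tested, 6 were higher and 4 lower, where 16.7% of all tested genes were higher and 34.6% lower. *Irf7*, the interferon regulatory factor of the feed-forward loop, stood at 74.2, 66.4 and 80.4 FPKM against 775, 839 and 835 FPKM, a log2 fold change of 3.46 (adjusted p = 8.88e-10, limma). *Stat2*, a signal transducer of interferon receptors, had 2.10 (adjusted p = 1.45e-09, limma), and *Irf1* had 0.84 (adjusted p = 4.99e-06, limma). The lower genes were the receptor genes *Ifngr1* (-0.92, adjusted p = 3.02e-08, limma), *Ifnar2* (-0.30, adjusted p = 4.65e-05, limma) and *Ifnar1* (-0.27, adjusted p = 0.000270, limma) and the kinase gene *Jak1* (-0.11, adjusted p = 0.00787, limma). *Jak1* did not pass after median-ratio scaling, which left 8 of the 12 higher and 3 lower. *Ifnb1*, the gene of interferon beta, was listed at 0 in control BMDMs and at a mean of 0.212 FPKM in CITED2-deficient BMDMs, below the filter.

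**Figure D4:**
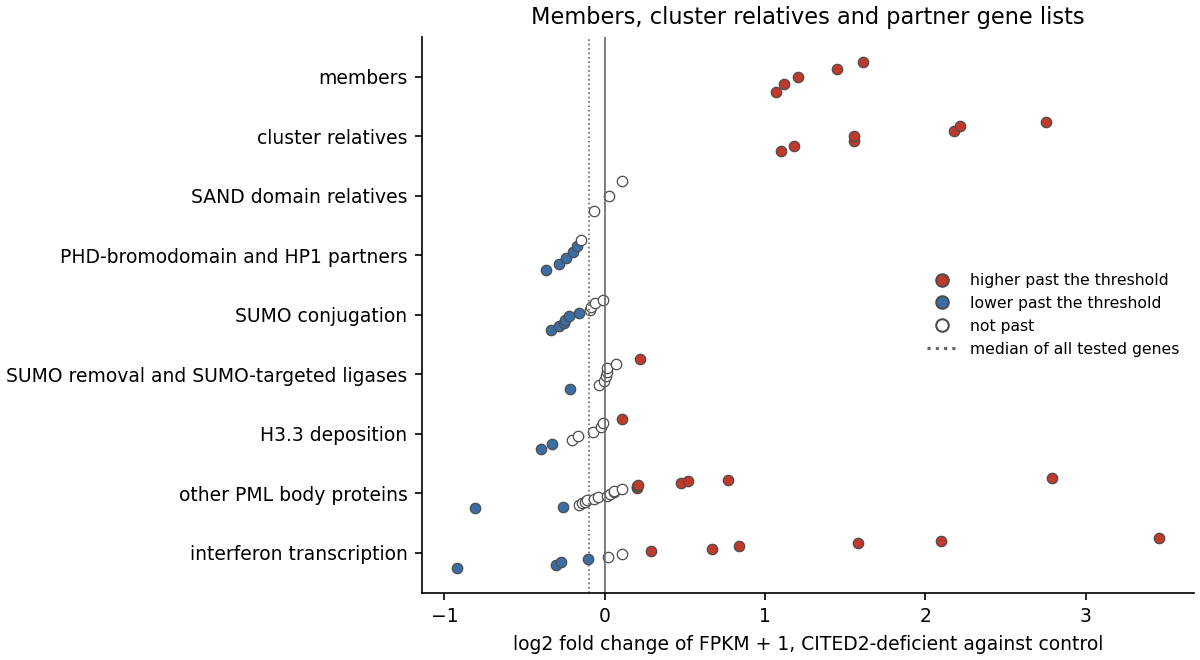
Log2 fold change of FPKM + 1 for each tested gene of the members, the cluster relatives and the 7 partner lists, colored by the limma call at an adjusted p of 0.05, with the median of all tested genes (-0.10) dotted. The 5 members lie between 1.07 and 1.61, while the SUMO, H3.3, SAND and PHD-bromodomain genes lie within 0.40 of 0. Among the cluster relatives, *Gm7609*, *Gm7592*, *Gm15433* and *Gm7582* passed the filter only through the deficient libraries, so their colored calls are not used.

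The profiles most like those of the 5 genes were found by the Euclidean distance between log2(FPKM + 1) values centred on their mean over the 6 libraries. For *Sp100* they were *Fcgr1* (distance 0.053), *Mov10* (0.087) and *Parp9* (0.091), and for *Daxx* they included *Irgm2* (0.085) and *Oas1a* (0.115). Those of *Pml* included *Slfn2* (0.039) and *B2m* (0.074). *Sp110* was nearest to *Itpr1* (0.055), *Ddit3* (0.088) and *Axl* (0.099), and *Sp140* to *Tmem184b* (0.131), *Eif2ak2* (0.137) and *Adar* (0.157). These distances describe 6 libraries of 2 groups, and all tested genes share these libraries and their depth.

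Markers of other cells moved with the groups. Macrophage markers were high as a sum over 8 genes, at 5624 to 5694 FPKM in control BMDMs and 5287 to 5367 FPKM in CITED2-deficient BMDMs. That sum was mostly *Adgre1*, *Cd68* and *Csf1r*. Of the 8, 1 was higher and 5 were lower, and with median-ratio scaling or quantile normalization 3 were higher and 5 lower. The higher gene was *Fcgr1* (1.48, adjusted p = 1.49e-09, limma). *Lyz2*, the locus that carries Cre in both groups, was lower, at means of 31.3 and 9.75 FPKM (-1.59, adjusted p = 2.33e-08, limma). *Itgam* was also lower (-0.81, adjusted p = 1.77e-07, limma). Over all tested genes 16.7% were higher and 34.6% lower. All 8 tested fibroblast or stromal markers were higher. Of these, *Postn* (mean 0.394 against 3.47 FPKM) and *Pdgfrb* (0.936 against 2.45 FPKM) passed the filter only through the deficient libraries, so their calls are not used. The sum over all 10 was 58.5 to 71.8 FPKM against 236 to 686 FPKM. Between the groups the summed level of the 5 genes moved in the same direction, from 263 to 271 FPKM in control BMDMs to 662, 723 and 689 FPKM in deficient replicates 1, 2 and 3, of which replicate 1 had the highest stromal sum. Without that replicate the log2 fold changes were 1.47 for *Sp100*, 1.15 for *Sp110*, 1.24 for *Sp140*, 1.10 for *Pml* and 1.65 for *Daxx*. Of 8 neutrophil or precursor markers, 7 were tested and 6 were lower, with a sum of 649 to 718 FPKM against 499 to 594 FPKM. This sum was mostly *S100a8*, *S100a9* and *Ngp*. Granule genes of precursors fell further, with means of 16.2 and 1.95 FPKM for *Mpo*, 12.4 and 2.15 for *Elane* and 14.3 and 2.52 for *Prtn3*. Of 4 endothelial markers, 3 were tested and 2 were higher. Of these, *Cdh5* (mean 0.720 against 1.52 FPKM) passed the filter only through the deficient libraries, so its call is not used. The endothelial sum was 5.75 to 6.04 FPKM against 27.0 to 32.3 FPKM and was mostly *Kdr*, at means of 4.26 and 27.5 FPKM. Of 7 dendritic cell markers 5 stayed below 1 FPKM in every library, and the sum of 353 to 363 against 865 to 974 FPKM was mostly *Bst2*, itself an interferon-inducible gene. Of 6 B cell markers 1, *Ebf1*, was higher, and the sum was 2.65 to 3.88 FPKM against 3.77 to 4.30 FPKM. *Ebf1* (mean 0.503 against 1.56 FPKM) also passed the filter only through the deficient libraries, so its call is not used. T or NK cell markers summed to at most 1.38 FPKM, erythroid markers to at most 1.28 FPKM and mast cell or basophil markers to at most 3.11 FPKM in any library. Of these 3 lists 1 gene was tested, and 0 passed in limma, 0 at an unadjusted p under 0.05 and 0 by limma-voom. The part of stromal cells, neutrophil precursors, endothelial cells and other cells in the levels of the 5 genes was not tested.

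**Figure D5:**
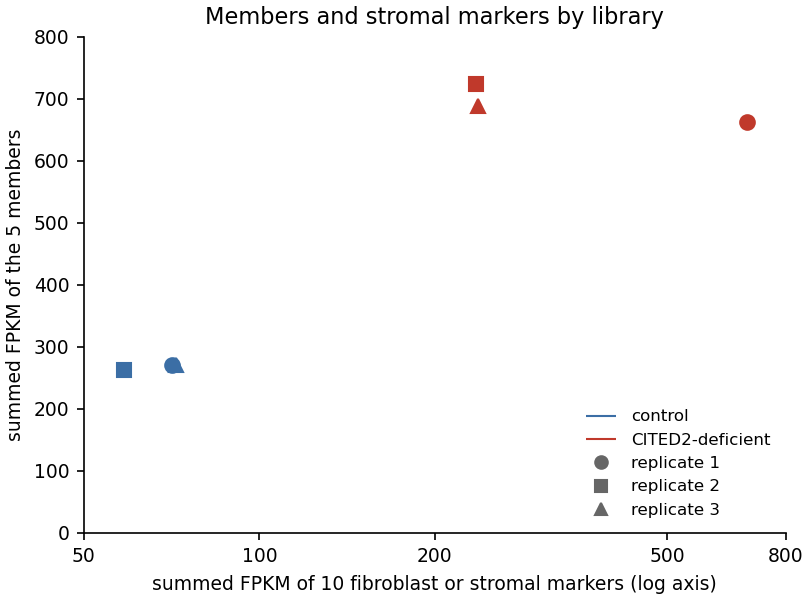
Summed FPKM of the 5 genes against the summed FPKM of 10 fibroblast or stromal markers (log axis), with each library as a point and the replicates by shape. Both sums are higher in each CITED2-deficient library than in any control library, and the deficient library with a stromal sum of 686 FPKM has a sum of the 5 genes of 662 FPKM.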

How the data were processed

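Per the labels and the study's methods, total RNA of BMDMs was depleted of ribosomal RNA and sequenced as stranded libraries, and the authors used STAR, Cufflinks and Cuffdiff with mm10. The sources used here give no tool versions. The deposited values are FPKM per gene and library, already divided by length and library size. With transcript lengths from GENCODE vM21, 22239 genes matched, and fragment numbers came out whole (tolerance 0.02) in every library for 96.1% of them. Libraries of a group differed by more than sampling noise (mean chi-square per gene 2.31 to 6.45), and none was treated as a repeat deposit.

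Genes with a mean of at least 1 FPKM were tested on log2(FPKM + 1) in limma 3.58.1 (R 4.3.3) with a variance trend, since the Cuffdiff test needs alignments. The pseudocount understates changes of low genes. On simulated data for 11600 genes in this comparison, 69.07% of 1.5-fold and 92.93% of 2-fold changes were recovered, with 15 false calls. Only 97 genes changed by 1.5-fold and 99 by 2-fold, up or down, with the same noise setting for every gene. In the real data 51.3% of tested genes were called, so these shares may not carry over. Ratios were compared by exact permutation in scipy 1.17.1, and promoter windows were aligned in Biopython 1.88.

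Genes named are the 5 members, *Cited2*, the cluster relatives, 3 neighbors on each side, up to 4 genes per direction of each list, and the 3 most similar profiles. A few genes that the rule would name are not reported here. Further list genes that did not pass were named for their role, and cell type markers were given mostly as sums, with some named. The members and lists were chosen with earlier results of these data known. Alternatives were pseudocounts of 0.1 and 0.5, a mean of at least 5 FPKM or no filter, quantile normalization, median-ratio scaling, no trend, array weights, a replicate block, limma-voom on recovered fragments and each library left out. No protein sequences were used here.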

Additional observations from a re-analysis of the deposited data

How the results depend on the processing

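All 5 genes kept their direction and passed the threshold under all 16 alternatives, with a largest adjusted p of 5.97e-05 (limma, *Sp110*). For *Daxx* the limma-voom alternative used rounded values that were not whole fragment numbers, so it is no check for this gene. Log2 fold changes were 1.42 to 1.54 for *Sp100*, 1.07 to 1.21 for *Sp110*, 1.15 to 1.30 for *Sp140*, 1.04 to 1.16 for *Pml* and 1.58 to 1.70 for *Daxx*. Leaving out 1 library gave 1.42 to 1.47, 1.07 to 1.15, 1.15 to 1.25, 1.04 to 1.10 and 1.58 to 1.66. Scaling moved the calls over all genes from 1950 higher and 4044 lower to 2624 and 2576 with median-ratio scaling, and to 2265 and 3125 with quantile normalization. The median log2 fold change moved from -0.10 to -0.01 and -0.05. Of the PHD-bromodomain and HP1 genes 3 were called with median-ratio scaling in place of 5, and of the SUMO conjugation genes 3 in place of 6. Of the SUMO removal genes 2 were called, and 1 with no filter, 1 with the replicate block, and 1 to 2 when a library was left out: 1 without control replicate 1 or 3, or without CITED2-deficient replicate 2 or 3. The cause was not tested. Same-numbered libraries did not deviate together (correlations 0.014, 0.008 and 0.040). The labels state no pairing by number, and so few libraries cannot exclude one. Only 3 of the 6 libraries correlated best with their own number. With the replicate block 5708 genes were called in place of 5994, and apart from the SUMO removal genes the block moved no count of a list by over 1.5 times. Depth limits the cluster copies, which had under 10 fragments in many control libraries.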
